A study of Homo sapiens with 12 samples.

Results

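The 9 genes described here, SNAI1, SNAI2, TWIST1, ZEB1, ZEB2, CDH1, CDH2, VIM and FN1, are the standard transcription factors and marker genes of the epithelial-mesenchymal transition. They were chosen by name and not by a rule on measured values, with earlier results of these data known. They are 9 of the 19970 protein-coding genes on chromosomes 1 to 22 and X in the gene table used, RefSeq's for GRCh38.p14. The cells were Huh7, a human hepatocellular carcinoma line, labelled wild type. They were kept for 48 h with 15 µM choline or with 0 µM choline, and both groups grew in custom DMEM made without choline chloride, with B-27 supplement in place of serum. Chromatin immunoprecipitation with sequencing (ChIP-seq) was made for H3K27ac and H3K4me1, with 1 library for each mark and dose, so no difference below has a replicate check and none was tested. Each library was available as a list of summits, the positions where enrichment peaks, each with a score on a −log10 scale.

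In the epithelial-mesenchymal transition, epithelial cells lose their junctions and polarity and take on migratory, fibroblast-like properties. It runs during embryonic development and wound healing and is studied in carcinoma for its links to invasion. The factors SNAI1, SNAI2, ZEB1, ZEB2 and TWIST1 bind E-box sequences, and the Snail and ZEB zinc-finger proteins repress CDH1 through them. CDH1 encodes E-cadherin, the adhesion protein of epithelial junctions. CDH2 encodes N-cadherin, which hepatocytes also carry, VIM encodes the intermediate filament protein vimentin, and FN1 encodes fibronectin, which hepatocytes secrete into plasma. H3K27ac is found at promoters and enhancers in use, whereas H3K4me1 covers enhancers whether in use or poised.

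Promoter sequences are shown for 3 of the genes, because their H3K27ac differed in kind at the gene end. ZEB1 had a summit there at 0 µM only, ZEB2 had none at either dose, and VIM had one at both. Each sequence runs from 250 bases before to 50 bases after a start listed in RefSeq (GRCh38.p14). Capitals mark the E2-box CACCTG, a form of the E-box bound by Snail and ZEB proteins, and the box GGGTG, a core of CACCC-type sites bound by KLF proteins, each on either strand. That table lists 7 starts for ZEB1, and the one nearest the summit is shown.
ZEB1, chr10:31318966-31319265, plus strand: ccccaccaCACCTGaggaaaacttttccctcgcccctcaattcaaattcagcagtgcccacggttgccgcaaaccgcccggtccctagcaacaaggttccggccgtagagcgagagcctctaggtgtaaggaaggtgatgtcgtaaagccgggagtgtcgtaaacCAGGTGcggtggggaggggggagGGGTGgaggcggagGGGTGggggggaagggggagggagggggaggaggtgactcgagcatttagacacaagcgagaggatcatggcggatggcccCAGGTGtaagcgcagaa
ZEB2, chr2:144520070-144520369, minus strand: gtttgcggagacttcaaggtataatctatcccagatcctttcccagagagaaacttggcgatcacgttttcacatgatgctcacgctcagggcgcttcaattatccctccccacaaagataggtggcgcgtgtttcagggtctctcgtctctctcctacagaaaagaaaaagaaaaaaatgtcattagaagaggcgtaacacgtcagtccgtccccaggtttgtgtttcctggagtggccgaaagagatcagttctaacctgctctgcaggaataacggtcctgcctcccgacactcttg
VIM, chr10:17227991-17228290, plus strand: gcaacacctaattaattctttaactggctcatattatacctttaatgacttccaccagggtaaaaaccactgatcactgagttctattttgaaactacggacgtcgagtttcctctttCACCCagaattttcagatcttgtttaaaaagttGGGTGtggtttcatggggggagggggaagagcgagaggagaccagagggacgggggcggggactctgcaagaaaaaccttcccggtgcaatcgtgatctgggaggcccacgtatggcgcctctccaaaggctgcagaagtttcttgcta

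The ZEB1 sequence held the E2-box 3 times, beginning at −242, −85 and 33 from the listed start, which is base 0, and the box GGGTG at −62 and −48. Of the other 6 listed ZEB1 starts, 1 had the E2-box, once. The ZEB2 sequence held neither. The VIM sequence held no E2-box and the box GGGTG at −132 and −99. Among 22131 promoter sequences of 15811 protein-coding genes in the same table, 19.98% held the E2-box at least once, 0.560% held it at least 3 times and 63.4% held the box GGGTG. The general E-box CANNTG, which includes the E2-box, was in 65.1% of them and occurred once in the ZEB2 sequence and nowhere in that of VIM. The GC-box GGGCGG was in 56.3% of promoters, once each in ZEB1 and VIM and 6 times in the FN1 promoter. The letters TATAAA, in 9.46% of promoters, were in none of the 3 sequences shown. GC content was 61.7% for ZEB1, 49.0% for ZEB2, 48.0% for VIM and 76.7% for FN1, against a median of 62.3% over all of these promoters. SNAI1, SNAI2, TWIST1 and CDH1 were not matched in the promoter table, and distances for them are counted from the end with the lower coordinate.

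H3K27ac was listed at 29305 summits with 15 µM choline, against 37946 with 0 µM. H3K4me1 was listed at 349202 with 15 µM, against 343156 with 0 µM. The lists were therefore compared after multiplying each 0 µM count by the ratio of list lengths, 0.772 for H3K27ac and 1.02 for H3K4me1. A ratio below is the 15 µM count over that scaled 0 µM count, with an exact binomial 95% interval that covers counting error only and treats neighbouring summits as independent. A window is the sequence within 50 kb of either annotated end of a gene, and a gene-end summit lies within 1 kb of either end. A gene end was called lost if it had a summit at 0 µM and the nearest at 15 µM was over 2 kb from both ends, and gained in the opposite case. The hepatocyte and liver cancer marker genes, which check the cell type, had 275 H3K27ac summits in their windows at 15 µM, against 239 at 0 µM. Each of the 14 had at least 1. The 9 fibroblast and stellate cell markers had 8 and 13, the 5 endothelial markers 9 and 6, all at PECAM1, and the 6 blood markers 12 and 11, of which LYZ had 10 and 8.

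Around the 9 transition genes, most H3K27ac summits lay at CDH1, CDH2 and FN1. Of the 5 factors, SNAI1 had 5 window summits at 15 µM, as many as CDH2, and 2 at 0 µM, ZEB1 had 1 at 0 µM, and SNAI2, TWIST1 and ZEB2 had none. The windows of all 9 together had 43 H3K27ac summits at 15 µM, against 53 at 0 µM. Scaled for list length the 0 µM sum was 40.9, and the ratio was 1.05 (0.686 to 1.60). CDH1, CDH2 and FN1 held 36 of the 43 (83.7%) and 47 of the 53 (88.7%). Summits inside the gene bodies numbered 36 at 15 µM and 59 at 0 µM, a ratio of 0.790 (0.507 to 1.22). Both intervals include 1. Without scaling by list length the body ratio was 0.610 (0.392 to 0.939), whose interval leaves out 1, and among summits scoring at least 10 it was 1.14 (0.586 to 2.19). The window ratio lay between 0.811 without scaling and 1.23 in lists cut to equal length or to scores of at least 10, on both sides of 1. The median gene of the 9 had 2 summits in its window in each list, and the median of all genes was 1 at 15 µM and 2 at 0 µM. The window held any H3K27ac summit for 5 of 9 genes at 15 µM and 6 of 9 at 0 µM, against 51.2% and 65.0% of all genes.

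H3K4me1 was spread over more of the genes. Their windows had 301 H3K4me1 summits at 15 µM, against 306 at 0 µM, a ratio of 0.967 (0.822 to 1.14), and the bodies held 236 and 237, a ratio of 0.979 (0.814 to 1.18). All 9 genes had a window summit at 15 µM and 8 had one at 0 µM, against 98.2% and 98.1% of all genes. The median gene of the 9 had 39 at 15 µM and 45 at 0 µM, against 21 and 20 over all genes. CDH1, CDH2 and FN1 held 46.2% of these summits at 15 µM and 47.4% at 0 µM, a smaller share than for H3K27ac. Windows of genes differ in length with the gene, so these counts are not per kilobase.

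**Figure D1:**
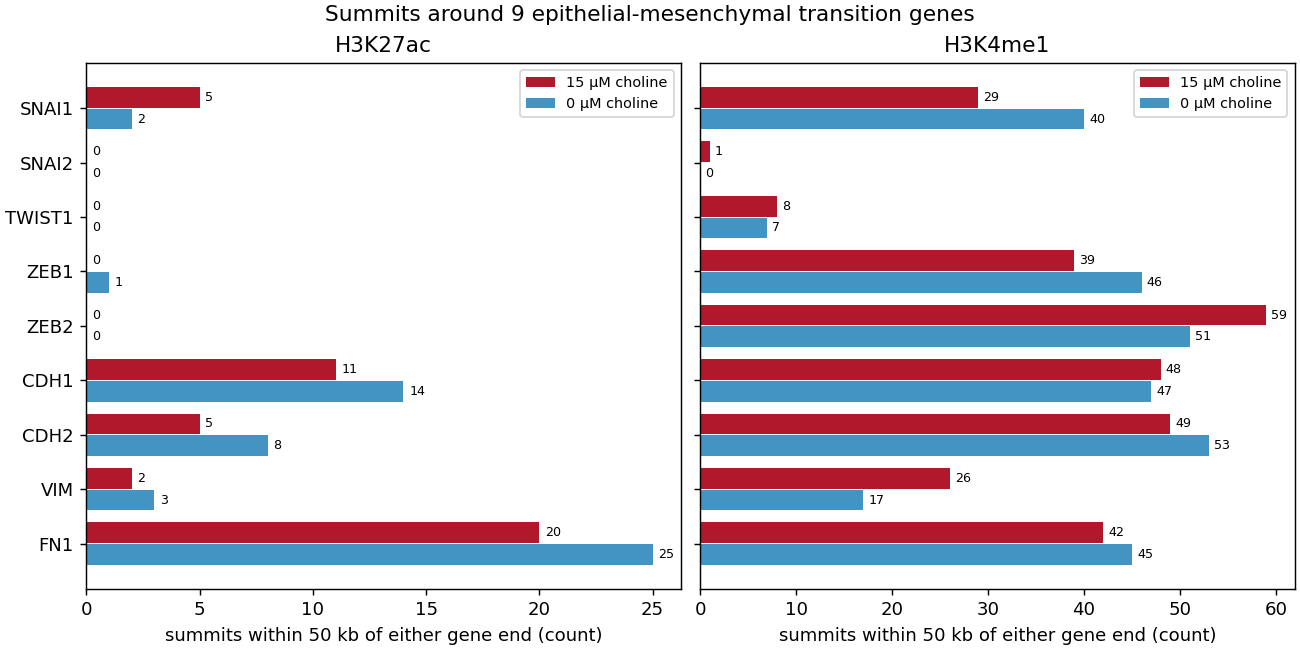
Summits within 50 kb of either end of each gene (horizontal axis, count) for the 9 genes (vertical axis), H3K27ac at left and H3K4me1 at right, with the 15 µM bar above the 0 µM bar. SNAI2, TWIST1 and ZEB2 have no H3K27ac summit at either dose, while FN1 has 20 at 15 µM and 25 at 0 µM.

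Of all genes, 16.2% had an H3K27ac gene-end summit at 15 µM and 28.3% at 0 µM. Of the 9 genes, 2 had one at 15 µM (VIM and FN1) and 3 at 0 µM (those and ZEB1). ZEB1 was the 1 gene of these 3 called lost, where 43.9% of all genes with a gene-end summit at 0 µM were lost, and none of the 9 was gained, where 10.5% of all genes with one at 15 µM were. For H3K4me1 the gene-end shares over all genes were 52.9% at 15 µM and 51.6% at 0 µM. ZEB1, ZEB2 and CDH2 had such a summit at 15 µM, and ZEB1, ZEB2, VIM and FN1 had one at 0 µM. No gene of the 9 was called lost, against 8.92% of all genes with one at 0 µM, and CDH2 was called gained, against 10.9% of those with one at 15 µM. Each of the H3K27ac shares changes side of its background with 1 gene more or fewer.

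A window count was called 2-fold different when the 15 µM count plus 1, over the scaled 0 µM count plus 1, was at least 2 or at most 0.5, for genes with at least 5 summits in both lists together. For H3K27ac this rule called 2.56% of 7179 genes higher at 15 µM and 13.8% lower. It could be applied to 5 of the 9 genes (SNAI1, CDH1, CDH2, VIM and FN1), called SNAI1 higher and called none lower. In the lists cut to equal length by score it called SNAI1 and CDH2 higher, each with a fold of 2, which is the limit itself. Among summits scoring at least 10 it called CDH2 alone. The share of all genes called was not counted under these cuts, so these calls have no background. For H3K4me1 it called 2.0% of 18872 genes higher and 1.85% lower, and it called none of the 8 transition genes with enough summits.

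**Figure D2:**
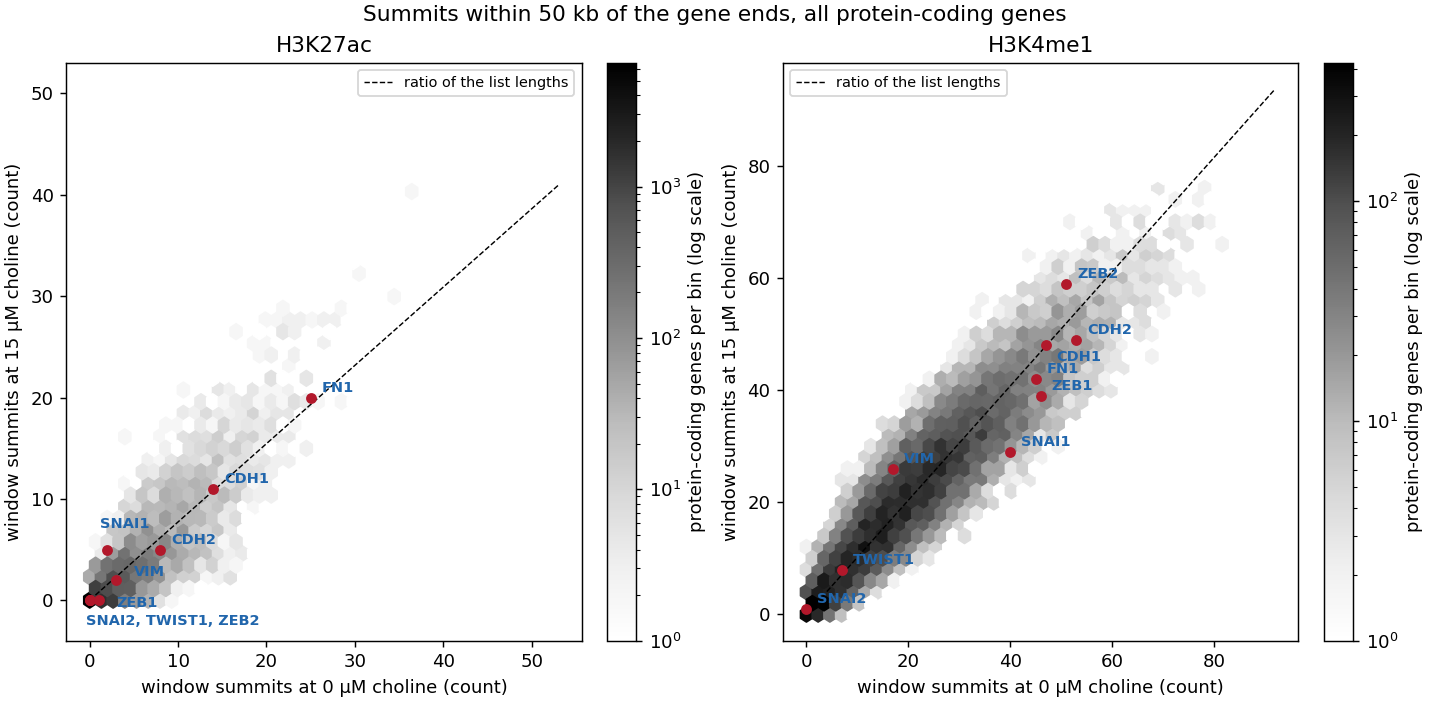
Window summits of every protein-coding gene, with the count at 15 µM on the vertical axis and at 0 µM on the horizontal axis, shaded by the number of genes on a log scale, and the 9 genes as labelled points. The dashed line has the slope of the ratio of list lengths; for H3K27ac, SNAI1 lies above it with 5 at 15 µM and 2 at 0 µM, and CDH1 and FN1 lie beside it.

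SNAI1 (Snail, a zinc-finger repressor that acts early in the transition) lies on chromosome 20 from 49982980 to 49988886. Its window had 5 H3K27ac summits at 15 µM, against 2 at 0 µM, and no summit of either list lay in the gene or within 1 kb of its ends. The 2 summits at 0 µM were 47.1 and 51.0 kb above the lower-coordinate end, with scores of 18.3 and 11.4. The 15 µM list had a summit within 50 bp of each, with scores of 12.7 and 6.80, and another 46.0 kb above that end with a score of 9.70. Its other 2 summits lay at −45.8 and −36.8 kb from that end, and both were nearest to RNF114, a ubiquitin ligase gene whose gene end had a summit at 15 µM and none at 0 µM. The 2-fold call rests on them: counted with the summits nearest to SNAI1 alone, 3 at 15 µM and 2 at 0 µM, the fold was 1.57 in place of 2.36. All 5 summits at 15 µM and both at 0 µM had an H3K4me1 summit of the same dose within 1 kb.

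The H3K4me1 counts at SNAI1 ran the other way, with 29 in the window at 15 µM and 40 at 0 µM, a ratio of 0.712 (0.426 to 1.18) whose interval includes 1. The gene body held 2 at 15 µM and 4 at 0 µM. The best-scoring H3K4me1 summits near the gene recurred at both doses: those at −17.1 kb from its lower-coordinate end lay 35 bp apart, with scores of 15.1 at 15 µM and 13.3 at 0 µM, and those at −5.88 kb for 15 µM and −6.05 kb for 0 µM lay 173 bp apart, with scores of 14.5 and 17.6. The SNAI1 locus thus carried H3K4me1 next to the gene in both lists and H3K27ac only at a distance.

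SNAI2 (Slug, the close relative of SNAI1) lies on chromosome 8 from 48917598 to 48921429 and had the fewest summits of the 9 genes. No H3K27ac summit lay in its window at either dose, and the nearest were 1392 kb from the gene at 15 µM and 957 kb from it at 0 µM. Its single H3K4me1 summit, at 15 µM, lay in the gene body with a score of 3.73, higher than 53.5% of that list. At 15 µM 1.84% of all genes had fewer H3K4me1 window summits than SNAI2.

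TWIST1, a basic helix-loop-helix factor of mesoderm and neural crest, lies on chromosome 7 from 19113047 to 19117636. It had no H3K27ac summit in its window, and the nearest lay 391 kb from the gene in both lists. H3K4me1 was listed 8 times in the window at 15 µM, against 7 at 0 µM, a ratio of 1.12 (0.356 to 3.64), and the highest score was 2.91 at 15 µM and 3.48 at 0 µM. Only 1 summit of each list had a partner of the other dose within 500 bp, at −1.79 kb from the lower-coordinate end for 15 µM and −1.57 kb for 0 µM.

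ZEB1, a zinc-finger and homeodomain repressor, spans chromosome 10 from 31318417 to 31529804 on the plus strand. The 15 µM list had no H3K27ac summit in the gene or its window, and the nearest was 333 kb from the gene. The 0 µM list had 1, at position 31319314, inside the gene 897 bp from its annotated start and 98 bp downstream of the listed start whose promoter is printed above. Its score of 22.3 was higher than 86.0% of the H3K27ac summits at 0 µM, while the lowest score listed was 5.01 in both lists. Since the summit lay 897 bp from the gene end, a limit of 500 bp ends the lost call. A summit missing from a list had either no enrichment or less than the list's threshold, and the lists cannot tell these apart.

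H3K4me1 at ZEB1 was present at both doses. The body held 53 summits at 15 µM and 48 at 0 µM, and the body with 50 kb on either side held 58 and 60, a ratio of 0.950 (0.651 to 1.39). The window ratio was 0.833 (0.530 to 1.30), from 39 at 15 µM and 46 at 0 µM. Near the annotated start a summit lay at −346 bp for 15 µM and at −418 bp for 0 µM, with scores of 5.29 and 7.41. The highest scores lay deep in the gene, 165.1 kb from its start for 15 µM and 165.6 kb for 0 µM (scores 27.4 and 18.9), with others at 25.5 and 25.3 kb (scores 25.6 and 17.1). These pairs lay 460 and 142 bp apart, and none of the ZEB1 H3K4me1 summits had an H3K27ac summit of the same dose within 1 kb.

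ZEB2, the paralogue of ZEB1, spans chromosome 2 from 144384081 to 144520119 on the minus strand. It had no H3K27ac summit in its gene or window, the nearest lying 731 kb from the gene at 15 µM and 383 kb from it at 0 µM. Its H3K4me1 window count was 59 at 15 µM, the highest of the 9 genes, and 51 at 0 µM, where CDH2 had 53. These were above 98.5% and 96.0% of all genes. The ratio was 1.14 (0.768 to 1.69). A summit lay 424 bp inside the gene from its start at 15 µM and 669 bp inside at 0 µM, with scores of 7.42 and 8.50. The highest-scoring ones, beyond the downstream end at 147.9 and 148.2 kb from the start, had scores of 24.2 at 15 µM and 15.8 at 0 µM and lay 251 bp apart.

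**Figure D3:**
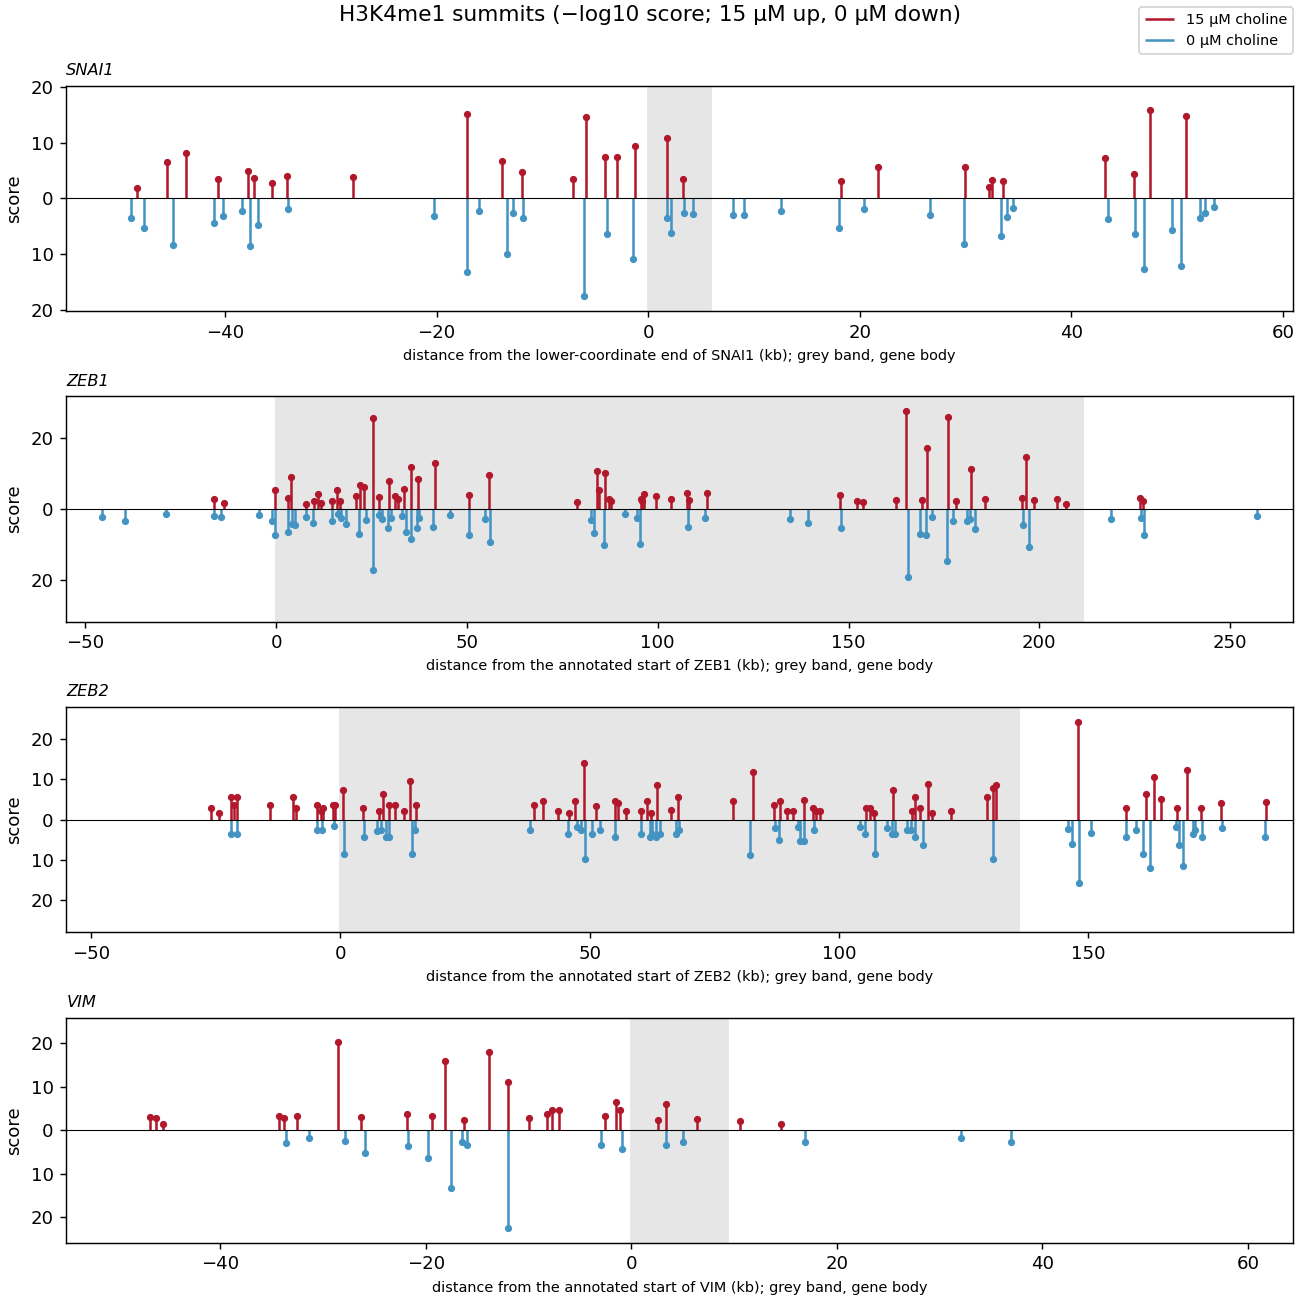
H3K4me1 summits at SNAI1, ZEB1, ZEB2 and VIM by distance in kb from the annotated start (for SNAI1, from the lower-coordinate end), with score on the vertical axis, 15 µM up and 0 µM down, and the gene body in grey. High summits recur at both doses at ZEB1 near 165 kb (27.4 at 15 µM and 18.9 at 0 µM) and at ZEB2 past its downstream end (24.2 at 15 µM and 15.8 at 0 µM).

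CDH1, which encodes E-cadherin and is the target the factors repress, lies on chromosome 16 from 68737292 to 68835537. Its window had 11 H3K27ac summits at 15 µM, against 14 at 0 µM, more than 95.5% and 96.5% of all genes, and the ratio was 1.02 (0.418 to 2.41). No gene-end summit was present in either list, and the nearest in the gene lay 3.31 kb above its lower-coordinate end at 15 µM and 2.83 kb above it at 0 µM. All 11 summits at 15 µM lay in the gene body, in a pair of clusters, 5 summits from 3.31 to 7.90 kb and 6 from 49.7 to 60.3 kb. At 0 µM, 12 of 14 lay in the body, and the clusters reached from −4.75 to 7.47 kb with 4 summits and from 46.0 to 61.6 kb with 9. The highest score was in the second cluster at both doses, 31.8 at 56.0 kb for 15 µM and 41.9 at 55.7 kb for 0 µM, 284 bp apart.

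The remaining 2 summits at 0 µM in the CDH1 window were nearest to neighbouring genes, CDH3, which encodes P-cadherin, and TANGO6, whose gene end had a summit at 0 µM and none at 15 µM. Within 500 bp, 5 of the 11 summits at 15 µM and 5 of the 14 at 0 µM had a partner of the other dose, and within 2000 bp 11 of 11 and 11 of 14 did. H3K4me1 was listed 48 times in the window at 15 µM, against 47 at 0 µM, a ratio of 1.004 (0.657 to 1.53). Its highest scores were 37.1 at 5.85 kb for 15 µM and 24.8 at 4.01 kb for 0 µM, both within the span of the first H3K27ac cluster of their own dose. Both marks were listed inside CDH1 at both doses.

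CDH2, which encodes N-cadherin, spans chromosome 18 from 27932879 to 28177130 on the minus strand and is the longest of the 9 genes at 244 kb. All of its H3K27ac summits lay inside the gene, 11 at 15 µM and 25 at 0 µM. Scaled for list length the 0 µM count was 19.3, so the ratio was 0.570 (0.253 to 1.20), the lowest body ratio of the 3 H3K27ac-rich genes, and its interval includes 1. In the window, which leaves out the middle of this long gene, the counts were 5 at 15 µM and 8 at 0 µM, a fold of 0.836 by the 2-fold rule. The direction of this window count turned with the lowest scores left out: it was 5 at 15 µM and 2 at 0 µM in lists cut to equal length, and 4 and 2 among scores of at least 10, a fold of 2.04. No summit lay within 1 kb of either end.

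The highest summits of CDH2 were shared by the doses. At 9.05 kb from the annotated start the 15 µM list had a score of 40.3, and 9 bp away the 0 µM list had one of 48.6. At 86.0 kb the 15 µM score was again 40.3, and 130 bp away the 0 µM score was 36.3. Summits of lower score made up the difference in number. Between 51.0 and 98.6 kb the 0 µM list had a run of 14 summits, where the 15 µM list had 5 from 82.1 to 95.5 kb and 2 from 49.3 to 52.7 kb. At 185.4, 185.8 and 113.5 kb the 0 µM list had summits with scores of 12.04, 8.65 and 8.70, and no 15 µM summit lay within 18.0 kb of them. Summits of CDH2 scoring at least 10 numbered 6 at 15 µM and 6 at 0 µM, and those scoring at least 20 numbered 2 in each list.

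The H3K4me1 counts of CDH2 with 50 kb on either side were 95 at 15 µM and 111 at 0 µM, a ratio of 0.841 (0.633 to 1.12). RefSeq lists a second, internal start for CDH2, and an H3K4me1 summit lay 65 bp downstream of it at 15 µM and 142 bp downstream at 0 µM. The nearest to the first start lay at −2030 bp for 15 µM and at −2124 bp for 0 µM. The gained H3K4me1 gene end of CDH2 came from a summit at position 27932178, just past the gene's downstream end, with a score of 1.54 where the lowest score in that list was 1.30.

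**Figure D4:**
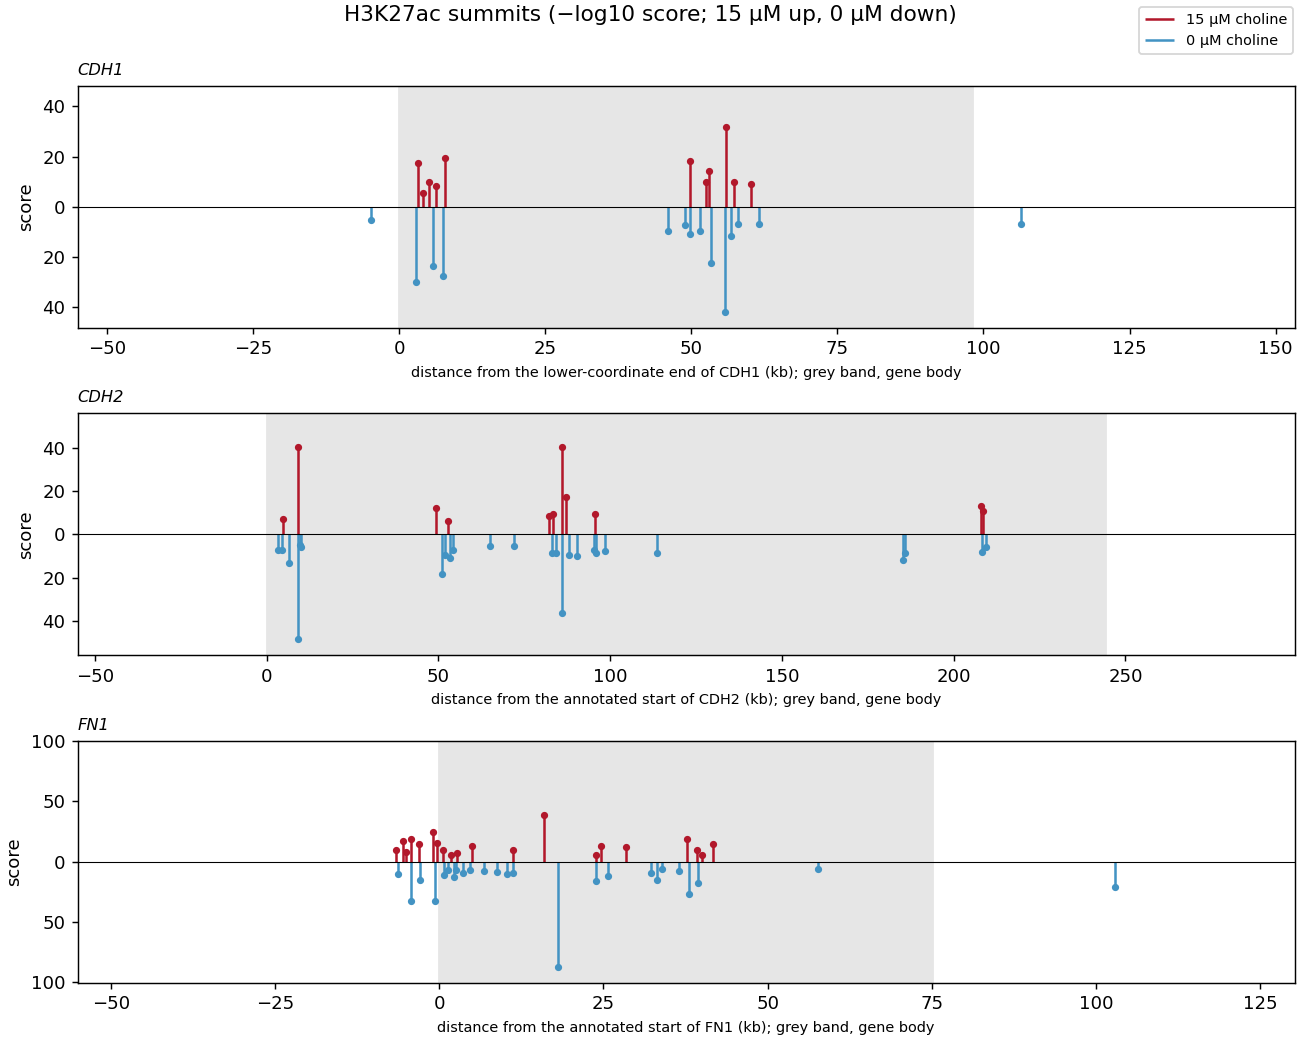
H3K27ac summits at CDH1, CDH2 and FN1 by distance in kb from the annotated start (for CDH1, from the lower-coordinate end), with score on the vertical axis, 15 µM up and 0 µM down, and the gene body in grey. The highest CDH2 summits recur at both doses near 9.05 kb and 86.0 kb, and the 0 µM list adds lower ones between them.

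VIM, which encodes vimentin, lies on chromosome 10 from 17228241 to 17237593 on the plus strand. Its H3K27ac was kept at the promoter, with summits at −681 and 53 bp from the start at 15 µM (scores 9.14 and 9.16) and at 116 bp at 0 µM (score 18.4). The summits at 53 and 116 bp lay 63 bp apart, just past the printed promoter's start site. The 0 µM score was higher than 80.0% of its list and the higher 15 µM score than 38.5% of its own. With only scores of at least 10 kept, both 15 µM summits drop out, and VIM too is called lost. The 0 µM list had a further summit at −11997 bp with a score of 10.2, and another at −26.9 kb, by the end of TRDMT1, an RNA methyltransferase gene. In the window the counts were 2 at 15 µM and 3 at 0 µM, a ratio of 0.863 (0.0721 to 7.54).

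For H3K4me1, VIM had 26 summits in its window at 15 µM, against 17 at 0 µM. The ratio of 1.503 (0.785 to 2.95) was the highest among the 8 genes with a summit in both lists, and its interval includes 1. The summits nearest the VIM start lay at −1068 bp for 15 µM and −900 bp for 0 µM, on either side of the 1 kb limit for a gene end. The highest score at 15 µM, 20.3, lay at −28.6 kb. The highest at 0 µM, 22.5, lay at −12004 bp, 7 bp from the H3K27ac summit of the same dose.

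FN1, which encodes fibronectin, lies on chromosome 2 from 215360865 to 215436068 on the minus strand and had the most H3K27ac window summits of the 9 genes. Its window held 20 of them at 15 µM, against 25 at 0 µM, more than 99.1% and 99.6% of all genes, and the ratio was 1.04 (0.546 to 1.94). Inside the gene body lay 13 at 15 µM and 20 at 0 µM. The nearest protein-coding gene end was that of FN1 for 16 and 19 of the window summits. For 4 and 6 it was that of another gene. Per 100 kb of the gene with its flanks, FN1 had 11.4 summits at 15 µM and 14.3 at 0 µM, against 5.55 and 7.06 for CDH1 and 3.20 and 7.26 for CDH2. With summits joined where gaps were at most 12.5 kb, all 20 at 15 µM formed 1 stretch from −6.50 to 41.7 kb, and 23 of the 25 at 0 µM formed 1 from −6.26 to 39.3 kb. Only 67 of 10585 stretches in the 15 µM list and 41 of 14332 in the 0 µM list held more summits.

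The highest H3K27ac score at FN1 was 38.6, 16.0 kb inside the gene, at 15 µM and 87.2, 18.2 kb inside, at 0 µM. Each is higher than 98.6% and 99.7% of its own list, and the summits lay 2125 bp apart. At the promoter the 15 µM list had 3 summits, at −932, −350 and 579 bp, and the 0 µM list had 2, at −658 and 777 bp. Within 500 bp, 13 of 20 summits at 15 µM and 12 of 25 at 0 µM had a partner of the other dose. H3K4me1 window counts were 42 at 15 µM and 45 at 0 µM, a ratio of 0.917 (0.588 to 1.43).

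Taking the windows of all 9 genes, 25 of 43 H3K27ac summits at 15 µM (58.1%, exact Clopper-Pearson 95% interval 42.1% to 73.0%) and 23 of 53 at 0 µM (43.4%, 29.8% to 57.7%) had a summit of the other dose within 500 bp. The shares over the whole lists, 50.7% at 15 µM and 38.7% at 0 µM, lie inside these intervals. In lists cut to equal length the order of the doses turned, with 48.8% at 15 µM and 54.3% at 0 µM. For H3K4me1 the shares were 48.8% (43.1% to 54.6%) of 301 at 15 µM and 50.7% (44.9% to 56.4%) of 306 at 0 µM. Over the whole H3K4me1 lists they were 43.5% and 44.5%, inside the first interval and below the second.

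H3K27ac summits over 2.5 kb from every protein-coding gene end, called distal, made up 36 of 43 window summits at 15 µM and 44 of 53 at 0 µM. An H3K4me1 summit of the same dose lay within 1 kb for 18 of the 36 (50%, 32.9% to 67.1%) and 31 of the 44 (70.5%, 54.8% to 83.2%). Over all distal H3K27ac summits the shares were 58.8% at 15 µM and 67.1% at 0 µM. Counting all H3K27ac summits of a gene with its 50 kb flanks, those near gene ends and in the middle of long genes included, the counts differed at FN1, where 8 of 20 H3K27ac summits had H3K4me1 within 1 kb at 15 µM and 20 of 25 at 0 µM, and at CDH2, where 5 of 11 and 17 of 25 did. At CDH1 the counts were 5 of 11 at 15 µM and 6 of 14 at 0 µM. FN1 and CDH2 were singled out after their values were seen.

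Related genes of the same process were followed in 4 lists. Sums were taken gene by gene, so a summit in the windows of neighbouring genes of a list counts for each of them. Such overlaps were not counted. Of 30 epithelial junction and identity genes, the windows held 187 H3K27ac summits at 15 µM, against 224 at 0 µM, a ratio of 1.08 (0.885 to 1.32), and 8 and 12 genes had a gene-end summit. The 2-fold rule called 1 of 18 lower, where the background was 13.8%. It was CTNNB1, the gene of β-catenin, which links cadherins to actin and carries Wnt signals, with 1 at 15 µM and 5 at 0 µM. CTNNA1, the gene of α-catenin, was the 1 lost gene end of the 12, where the background was 43.9%.

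Of 15 other transition factors, the windows held 38 H3K27ac summits at 15 µM, against 60 at 0 µM, a ratio of 0.820 (0.531 to 1.25). SOX9, a factor of bile duct and progenitor cells, was the 1 lost gene end of 5, against 43.9% over all genes, with a window count of 0 at 15 µM, against 4 at 0 µM, and the 2-fold rule called none of the 7 with enough summits. Of 26 mesenchymal and matrix genes, the windows held 62 at 15 µM and 93 at 0 µM, a ratio of 0.863 (0.616 to 1.20). The gene ends of MMP14, a membrane-bound matrix metalloproteinase, and AXL, a receptor tyrosine kinase, were 2 lost of 6, against the same 43.9%. The 2-fold rule called CD44, a hyaluronan receptor, the 1 lower of 9, against 13.8% over all genes, with a window count of 2 at 15 µM, against 9 at 0 µM.

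Of 18 inducers with their receptors and mediators, the windows held 166 at 15 µM and 180 at 0 µM, a ratio of 1.19 (0.961 to 1.48). The lost gene ends were 3 of 12, again against 43.9%, those of TGFB1, a ligand that induces the transition, MET, the hepatocyte growth factor receptor, and FGFR1, a fibroblast growth factor receptor. The whole MET gene body, its ends included, held 19 summits at 15 µM and 18 at 0 µM. FGFR1 was also the 1 gene of 12 called lower, against 13.8% over all genes, with a window count of 0 at 15 µM, against 5 at 0 µM. None of the 4 lists had a gained H3K27ac gene end, where 10.5% of all genes with one at 15 µM were gained. Genes with such an end at 15 µM numbered 8 in the epithelial list, 3 in the other factors, 3 in the mesenchymal list and 8 in the inducers. For H3K4me1 the ratios were 0.921 (0.841 to 1.01) for the epithelial list, 0.972 (0.837 to 1.13) for the other factors, 1.001 (0.893 to 1.12) for the mesenchymal list and 0.880 (0.786 to 0.984) for the inducers. The lowest of them is the only one whose counting interval leaves out 1.

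**Figure D5:**
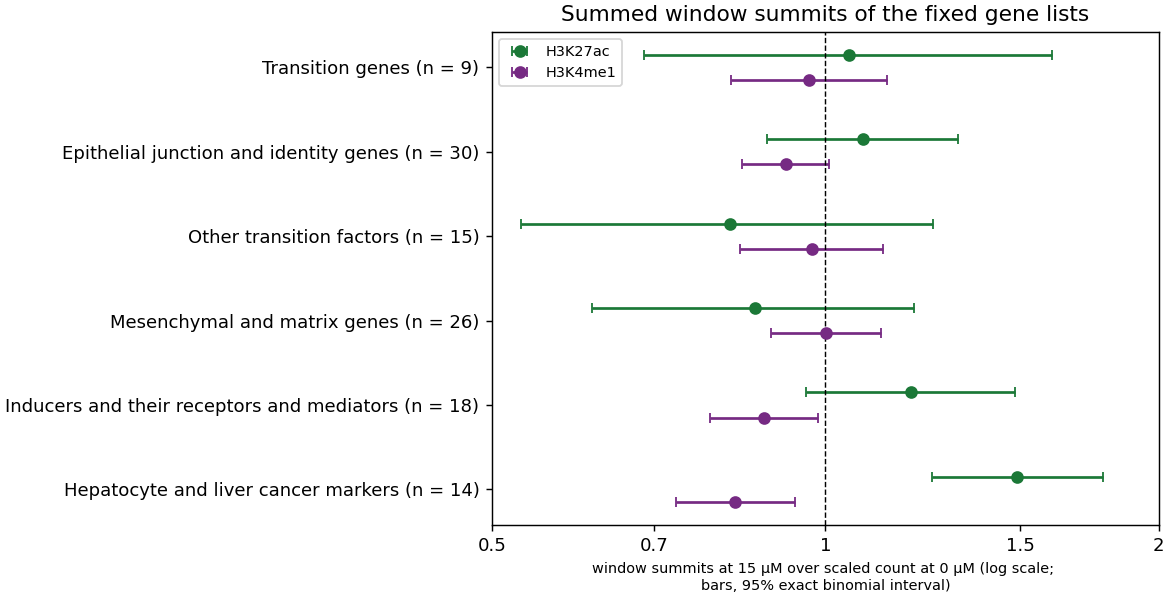
Ratio of window summits at 15 µM to the scaled count at 0 µM (horizontal axis, log scale) for the transition genes, the 4 related lists and the hepatocyte markers (vertical axis), with exact binomial 95% intervals as bars, H3K27ac above H3K4me1. For H3K27ac the transition genes stand at 1.05 (0.686 to 1.60) and the hepatocyte markers at 1.49 (1.25 to 1.78).

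The hepatocyte markers are set beside the transition genes as the line's own cell type. Their windows overlap for ALB and AFP and for FGA and FGB, so shared summits count more than once in that sum. HNF4A is in both this list and the epithelial list. The H3K27ac ratio of 1.49 (1.25 to 1.78) lay above 1, and the H3K4me1 ratio of 0.829 (0.733 to 0.938) lay below 1. The intervals of the transition genes and the hepatocyte markers overlap for both marks, and the difference between the lists was not tested. As background, hepatocytes express CDH2 and FN1 themselves, so in a liver line these genes do not mark mesenchymal cells alone.

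Genes with the most similar counts were found by the Euclidean distance between the log2(count + 1) of 8 values, the window and body counts of both marks at both doses, over the 4 libraries. The gene most like ZEB1 was KCTD8 (distance 0.223), with H3K27ac window counts of 0 at 15 µM and 1 at 0 µM and with 43 and 41 for H3K4me1. The next was NXN (0.418). For CDH1 they were ZFX (0.464) and NSUN6 (0.538), and for CDH2 they were TEAD1 (0.798) and BCAR3 (0.891), the largest distances found. SNAI1 was nearest to C8orf76 (0.632) and CPN2 (0.699), and VIM to RMP64 (0.371) and ORMDL1 (0.407). FN1 was nearest to the readthrough gene FAM47E-STBD1 (0.458), with H3K27ac window counts of 20 at 15 µM and 29 at 0 µM, and to MASP1 (0.651), with 22 and 23.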

How the data were processed

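Summit lists of 4 ChIP-seq libraries were used, and the other 8 of the series' 12 samples were not analysed here. The deposited files give a score per summit, read as the −log10 of either a p-value or a q-value. Which it was, the peak-calling settings and the read depth are not given in the sources used here. Per the submitters' processing notes the authors worked on build hg38 with MACS2, Bowtie, deepTools and Picard, whose versions are not given. The score is the authors' own and was used to describe or filter summits. Filters by score used the same limit for both doses, and whether scores of different lists are comparable was not tested.

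Summits on the 23 chromosomes 1 to 22 and X were kept (27 left out at 15 µM and 38 at 0 µM for H3K27ac, 429 and 422 for H3K4me1), written 1-based and counted with Python 3.11.15, numpy 2.4.6, pandas 2.3.3 and scipy 1.17.1. Gene positions and promoters came from RefSeq tables of GRCh38.p14. The gene table has no strand or exons, so gene ends stand for promoters, and strand was taken from the promoter table for the 5 of 9 genes matched there. Exon, intron and transcript positions were not used here. Motifs were searched as exact letters on both strands.

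The members and lists were chosen with earlier results of these data known. Named genes were the 9 members, related genes with a lost or gained H3K27ac gene end or past the 2-fold rule, window neighbours with a gene-end summit, and the 2 genes most alike by counts and over 200 kb away. CDH3 and single marker genes were named after their values were seen. Some list members are not reported here. The counting was tested on simulated data. With 1 library per mark and dose, no p-value was computed, and list lengths depend on depth and enrichment as well as on chromatin.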

Additional observations from a re-analysis of the deposited data

How the results depend on the processing

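No paired analysis was possible because each mark and dose had 1 library. Of 106 values for the 9 genes under the listed alternatives, 75 moved by less than the limit set for them and 31 by more. Ratios over the 9 genes fell on both sides of 1, and every interval included 1 except that of the H3K27ac body ratio without scaling. The H3K27ac window ratio ran from 0.811 (no scaling) to 1.23, with 0.950 for 20 kb and 0.885 for 100 kb windows, the H3K27ac body ratio from 0.610 (no scaling) to 1.14 (scores of at least 10), and the H3K4me1 window ratio from 0.944 (100 kb windows) to 1.11 (scores of at least 10). With scores of at least 10, genes with an H3K27ac gene end at 15 µM fell to 1 and lost ends numbered 2, while H3K4me1 gene ends at 15 µM, at 0 µM and gained were 0, 0 and 0. Within 500 bp, H3K27ac gene ends at 0 µM were 1 and lost ends 0, so the ZEB1 call ended, and H3K4me1 gene ends at 0 µM were 1 and gained ends 0. Within 2 kb, all 9 genes had an H3K4me1 gene end at 15 µM and 3 were gained. Gene-end shares over all genes were counted for the main setting only, so the gene-end counts under these alternatives have no background. With annotated starts only, or with absence asked within 10 kb, H3K4me1 gained ends were 0.

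The share of summits matched across doses followed the distance allowed. Within 200 bp it was 27.9% and 22.6% for H3K27ac at 15 and 0 µM, and 22.6% and 22.5% for H3K4me1. Within 1000 bp it was 79.1% and 62.3%, and 65.4% and 68.0%. Within 2000 bp it was 88.4% and 75.5%, and 80.7% and 85.6%. Distal H3K27ac summits with H3K4me1 within 500 bp were 27.8% at 15 µM and 36.4% at 0 µM, and within 2 kb 69.4% and 95.5%.

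SNAI1's H3K27ac fold of 2.36 lost its call with a 3-fold rule (0 genes higher), with scores of at least 10 (fold 1.22), with summits nearest to SNAI1 only (1.57), and with 20 kb (1) or 100 kb windows (1.60). The counts of genes called under the last 3, 0 higher in each, and under equal-length lists (2, SNAI1 and CDH2) and scores of at least 10 (1, CDH2) were added after seeing the data. With at least 1 summit asked, 1 gene, SNAI2, was called higher for H3K4me1, on 1 summit. The share of all genes called was not counted under any of these alternatives. Of 32 values under the added alternatives, 28 stayed within their limits. The cause of these moves was not tested.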
